A study of Mus musculus with 8 samples.

Results

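Notch1, Notch2, Rbpj, Hes1, Dtx1, Tcf7, Gata3 and Bcl11b were taken as a set of genes of T-lineage priming and Notch signalling, by name and not by any measured value. They are 8 of the 26164 genes with a symbol in the pre-B RNA-seq data. Open chromatin was measured by ATAC-seq in LSK cells, the Lin- Sca1+ cKit+ fraction of mouse bone marrow that holds haematopoietic stem cells and multipotent progenitors, and transcript levels were measured by RNA-seq in pre-B cells sorted by B-lineage surface markers and the absence of IgM, a gate that pro-B cells also pass. Each assay had 2 libraries per genotype.

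The WT mice were Dido1 flE16/+; R26R-EYFP; iCre Vav1 littermates, and the mutant mice, Dido1ΔE16, were Dido1 flE16/ΔE16; R26R-EYFP; iCre Vav1, all on the C57BL/6 strain. The animals were 6 to 10 weeks old and matched for age and sex within an experiment, and those used for sequencing were males of different ages. Both groups carried a floxed Dido1 allele, the EYFP reporter and a Cre recombinase driven by the Vav1 promoter, which is active in blood-forming cells. Exon 16 of Dido1 encodes the C-terminal part of its largest product, Dido3. The paper describes the libraries of both assays as biological replicates, and the RNA came from pools of mice. Nothing in the labels ties a library to single animals, and the spread between libraries may still be partly technical. In the pre-B RNA, the length-scaled coverage of exon 16 (mm10 chr2:180657963-180662583) was 24.6 and 21.8 TPM units in WT and 0.295 and 0.0843 in Dido1ΔE16, so the targeted exon matched all 4 labels.

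Notch receptors are cleaved when a neighbouring cell presents a ligand, and the freed intracellular domain enters the nucleus, where it joins the DNA-binding protein RBPJ and activates targets such as Hes1 and Dtx1. Early T-cell progenitors need this signal in the thymus. It leads to expression of Tcf7, which encodes TCF1, and of Gata3, and later of Bcl11b, which fixes T-cell commitment. Stem and progenitor cells of the marrow can carry open chromatin at such genes before they are expressed, and B-cell precursors normally keep the T-lineage factors off.

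The ATAC libraries differed in depth and in the number of peaks. They held 10249256 and 52050898 tags in WT and 22533077 and 44633938 in Dido1ΔE16. MACS2, run by the authors on each library, gave 27352 and 57739 peaks in WT against 13208 and 16329 in Dido1ΔE16. HOMER gave 24700 and 68357 against 15373 and 23839. Each shortfall of peaks at the 8 genes therefore has to be read against the same shortfall over all genes, and the WT library with the fewest tags still had more peaks than either Dido1ΔE16 library. Of 8 LSK marker genes, 5 and 6 had a promoter peak in the WT libraries and 4 in each Dido1ΔE16 library. The promoters of Kit, Cd34, Flt3 and Meis1 had one in all 4, those of 10 T- and NK-cell markers in none, and those of 10 B-lineage markers had peaks at 2 and 5 genes in WT and at 3 and 0 in Dido1ΔE16.

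In WT LSK cells, 23 regions assigned by the authors to 7 of the 8 genes were covered by a MACS2 peak in both libraries. Gata3 and Notch2 had 6 each, Rbpj 5, Hes1 3, and Notch1, Tcf7 and Bcl11b 1 each. Dtx1, a ubiquitin ligase of the Notch pathway, had no MACS2 peak in any library. Of the 23, 3 were annotated by the authors as promoters, those of Notch2, Rbpj and Gata3, while the rest were annotated to introns, exons or intergenic sequence. The sequences that follow are the central 200 bases of 7 of these regions, printed from the plus strand of GRCm38 (mm10). They were chosen to show the single shared regions of Notch1, Tcf7 and Bcl11b, 1 kept and 1 lacking region of Gata3, and the 2 regions that held an RBPJ motif, which is in capitals where it occurs.
Notch1 intron 4, chr2:26483466-26483665: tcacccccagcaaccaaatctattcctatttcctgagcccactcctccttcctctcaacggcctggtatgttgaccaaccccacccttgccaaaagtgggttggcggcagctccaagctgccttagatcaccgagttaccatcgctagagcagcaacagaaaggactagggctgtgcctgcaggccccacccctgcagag
Tcf7 35.5 kb upstream, chr11:52318550-52318749: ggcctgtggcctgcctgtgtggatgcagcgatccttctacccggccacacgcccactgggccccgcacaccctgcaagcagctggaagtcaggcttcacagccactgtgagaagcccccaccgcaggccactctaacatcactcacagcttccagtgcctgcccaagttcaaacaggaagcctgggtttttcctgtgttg
Bcl11b intron 1, chr12:107998811-107999010: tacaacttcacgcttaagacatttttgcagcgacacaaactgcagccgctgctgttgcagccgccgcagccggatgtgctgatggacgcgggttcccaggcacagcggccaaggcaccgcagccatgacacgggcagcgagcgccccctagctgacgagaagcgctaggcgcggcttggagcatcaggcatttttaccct
Gata3 284 kb downstream of the start, chr2:9593973-9594172: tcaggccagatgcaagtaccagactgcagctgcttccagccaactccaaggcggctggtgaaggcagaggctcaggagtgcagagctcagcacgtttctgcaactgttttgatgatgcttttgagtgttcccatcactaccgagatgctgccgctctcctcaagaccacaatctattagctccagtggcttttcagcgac
Gata3 intron 3, chr2:9871244-9871443: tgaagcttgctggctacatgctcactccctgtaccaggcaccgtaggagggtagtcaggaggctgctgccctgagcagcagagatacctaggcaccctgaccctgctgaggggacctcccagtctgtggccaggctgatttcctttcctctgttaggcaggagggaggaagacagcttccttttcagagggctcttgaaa
Notch2 intron 1, chr3:98046440-98046639: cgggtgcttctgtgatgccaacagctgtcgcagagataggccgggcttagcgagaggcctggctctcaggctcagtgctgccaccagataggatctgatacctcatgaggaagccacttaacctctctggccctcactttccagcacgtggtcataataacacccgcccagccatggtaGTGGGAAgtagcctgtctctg
Rbpj intron 1, chr5:53589262-53589461: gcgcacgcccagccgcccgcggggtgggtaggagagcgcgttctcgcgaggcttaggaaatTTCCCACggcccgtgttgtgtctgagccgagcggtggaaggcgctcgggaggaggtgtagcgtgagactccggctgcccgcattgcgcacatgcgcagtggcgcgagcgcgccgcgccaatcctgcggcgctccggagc

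The central 200 bases of all 23 regions were searched on both strands for 4 short motifs that belong to factors of this pathway or lineage. The RBPJ motif GTGGGAA, or TTCCCAC when read from the other strand, was in 2 of the 23 windows, against 4.13% of the 26327 windows of all regions shared by the WT libraries. The 2 matches started at base 180 of the Notch2 window and at base 62 of the Rbpj window shown. Both regions kept a peak in at least 1 Dido1ΔE16 library. Over all regions the motif was in 3.87% of windows with a Dido1ΔE16 peak and 4.46% of those without. A TCF1 motif (CTTTGAA or CTTTGAT) was in 1 window against 4.88%, a GATA motif (AGATAA or TGATAA) in 2 against 10.5%, and a RUNX motif (TGTGGTT or TGCGGTT) in 3 against 10.1%. A match describes letters and not binding.

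Across the 8 genes, the Dido1ΔE16 libraries had fewer MACS2 peaks than WT at most of the genes that had peaks. At Notch2, which encodes a receptor, the counts were 7 and 8 in WT and 2 in each Dido1ΔE16 library. At Rbpj they were 5 and 9 against 2 and 3. At Hes1, which encodes a transcriptional repressor, they were 3 and 6 against 1 and 1. At Gata3, which encodes a zinc-finger factor needed throughout T-cell development, they were 6 and 10 against 2 and 3. At Bcl11b they were 1 and 4 against 0 and 0. These 5 genes had groups that did not overlap.

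Notch1, the receptor that drives T-lineage entry, had 1 and 3 peaks in WT and 1 and 0 in Dido1ΔE16, and Tcf7 had 1 and 5 against 0 and 1. At both genes the lower WT count equalled the higher Dido1ΔE16 count. Thus both Dido1ΔE16 libraries were below both WT libraries at 5 of the 8 genes, or 5 of the 7 that had a MACS2 peak. Of the 17769 genes with any peak, 35.6% showed the same order, and these were not matched to the 7 for peak number. None of the 8 had more peaks in both Dido1ΔE16 libraries, an order seen at 0.191% of genes. With 2 libraries per group the exact permutation test, two-sided, cannot go under p = 0.333, which was its value at each of the 5 genes, and it was 0.667 at Notch1 and at Tcf7.

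The count at the 5 genes depended on the peak caller and on peak number. With the HOMER peaks it was 2 of 8, Hes1 with 5 and 4 peaks against 2 and 3 and Gata3 with 7 and 11 against 2 and 6, where 19.5% of genes had that order. When each library was reduced to its 13208 best-scoring MACS2 peaks, the number in the smallest library, it was 0 of 8, against 7.16% of the genes with a peak left. Dtx1 and Bcl11b had no such peak in any library.

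Of the 23 WT regions, 14 had no overlapping peak in either Dido1ΔE16 library and 9 kept one in at least 1, where 43.7% of the 26327 shared WT regions of all genes had none. The 14 were spread over Gata3, Notch2 and Rbpj with 3 each, Hes1 with 2, and Notch1, Tcf7 and Bcl11b with 1 each, so the last 3 genes kept none of their shared WT regions. All 3 promoter regions kept their peak, against 15.0% of promoter regions lacking one over all genes, and the 14 were among the 20 regions outside promoters, against 60.6%. Most of the regions without a Dido1ΔE16 peak had a low score in at least 1 WT library. The lower WT score came mostly from the first library, which had the fewest tags, and scores were not adjusted for depth. In the lowest of 5 classes of the WT peak score, taken as the lower of the 2 WT scores, all 7 member regions had no Dido1ΔE16 peak, as did 72.1% of all regions in that class. In the other classes, from low to high score, it was 3 of 6 against 62.9%, 2 of 3 against 49.8%, 1 of 4 against 28.9% and 1 of 3 against 4.73%. With HOMER peaks it was 6 of 18 regions against 29.3%, and with equal numbers of best-scoring peaks 1 of 5 against 13.3%. Without the first WT library, so that every peak of the deeper one counted, it was 37 of 45 against 69.9%.

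**Figure D1:**
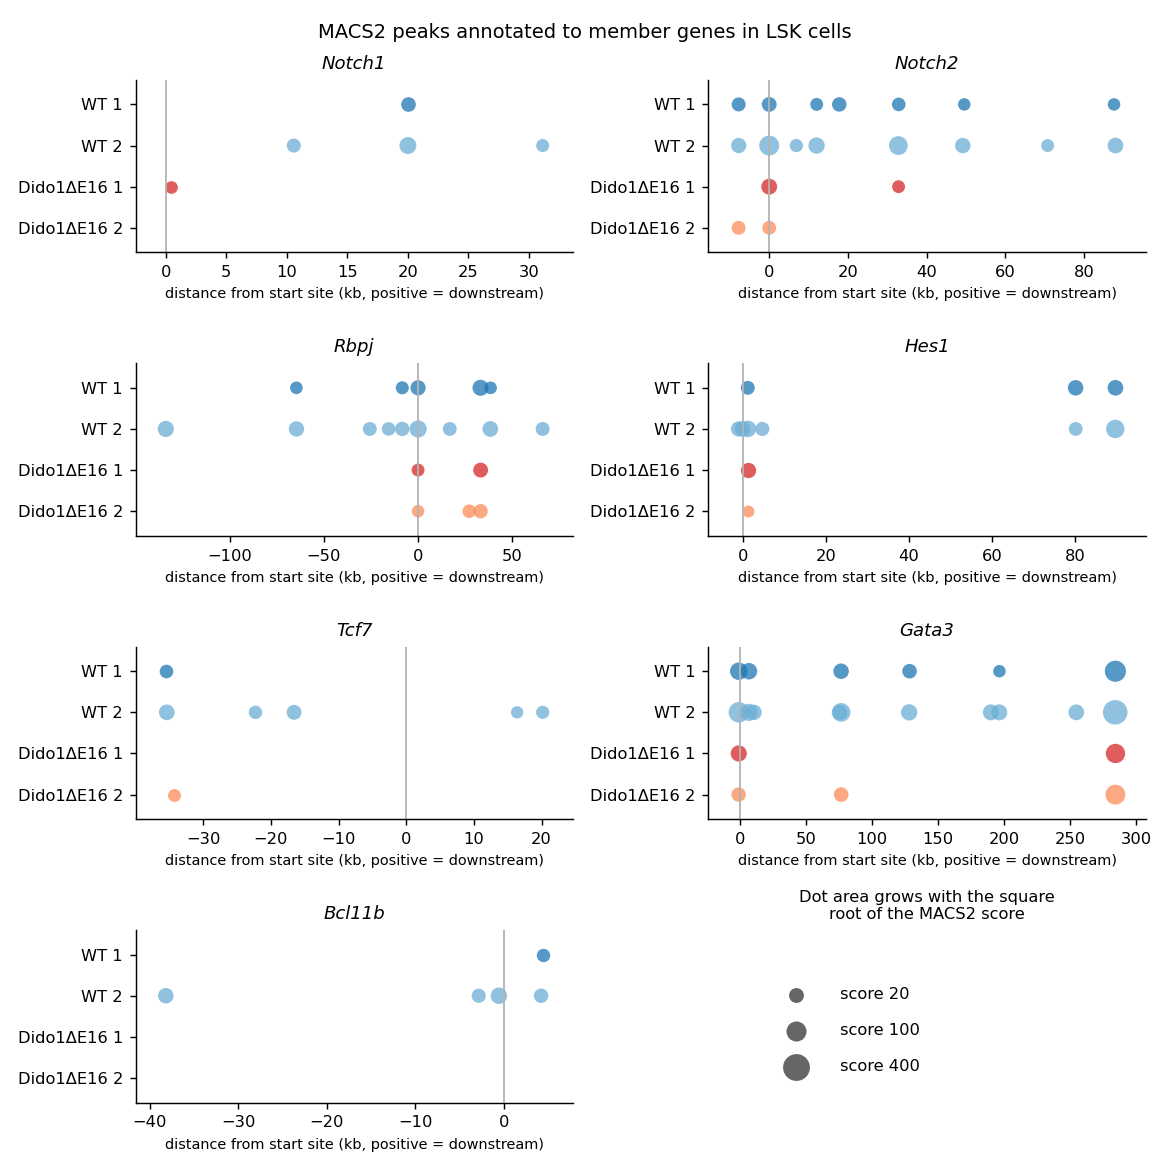
MACS2 peaks annotated to 7 of the 8 genes in LSK cells, 1 row per library, by distance in kb from the start site on the x axis (positive is downstream) and with a dot area that grows with the square root of the peak score. The Dido1ΔE16 rows hold 0 to 3 peaks per gene, and the Gata3 peaks at 284 kb and at the promoter stand in all 4 rows.

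**Figure D2:**
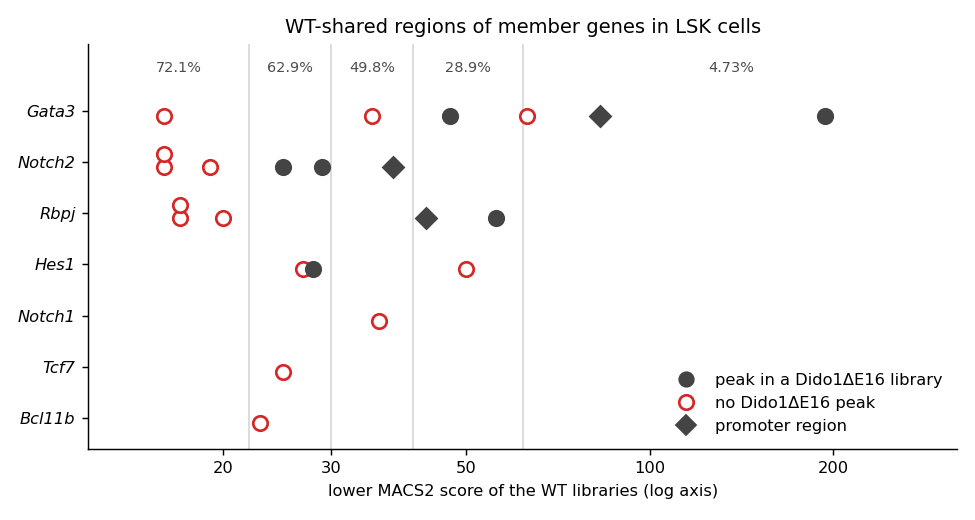
The 23 regions with a peak in both WT libraries, by gene, against the lower of the 2 WT MACS2 scores (log axis), with filled points for regions that kept a peak in a Dido1ΔE16 library, open red points for the 14 that did not, and diamonds for promoters. Grey lines part the 5 score classes and the percentages give the share of all shared WT regions in each class without a Dido1ΔE16 peak. The open points lie mostly at low scores.

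The strongest region of the set was not a promoter. It lay at chr2:9593723-9594424, 284 kb downstream of the Gata3 start, in the intron of a separate transcript, with MACS2 scores of 194 and 369 in WT and 130 and 147 in Dido1ΔE16. The Gata3 promoter region (chr2:9879307-9879872) had scores of 83 and 166 in WT and 57 and 33 in Dido1ΔE16. In the same gene, the intron 3 region (chr2:9871117-9871572) had 63 and 75 in WT and no peak in either Dido1ΔE16 library, and was the only member region of the highest score class without one. Of the remaining Gata3 regions, that 76.7 kb downstream (chr2:9801427-9801906) had scores of 47 and 112 in WT and a peak in the second Dido1ΔE16 library with a score of 36, and those 128 kb and 196 kb downstream, with 35 and 60 and with 16 and 55 in WT, had no Dido1ΔE16 peak.

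At Rbpj, the promoter region (chr5:53590225-53590589) had scores of 43 and 76 in WT and 19 and 16 in Dido1ΔE16, and the neighbouring intron 1 region (chr5:53588950-53589775) had 56 and 76 against 39 and 33. A single peak of the second WT library spanned both. The intron 1 label follows the authors' annotation to a longer transcript. The Rbpj transcripts that carried the pre-B level start at chr5:53590346 and chr5:53590486. Measured from those starts, part of the intron 1 region falls within the 1 kb limit of a promoter. At Notch2, the promoter region (chr3:98013247-98013854) had scores of 38 and 149 in WT and 53 and 27 in Dido1ΔE16, where the groups overlapped. The Notch2 intron 1 region with the RBPJ motif (chr3:98046439-98046642) had 25 and 114 in WT and a peak with a score of 19 in the first Dido1ΔE16 library alone. At Rbpj, the regions without a Dido1ΔE16 peak had WT scores of 17 and 45 at 64.6 kb upstream, 20 and 33 at 8.39 kb upstream and 17 and 50 at 38.5 kb downstream. At Notch2 they had 19 and 60 at 12.1 kb, 16 and 46 at 49.5 kb and 16 and 51 at 87.6 kb downstream, the last in exon 9.

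At Hes1, the region in the last exon (chr16:30066633-30066962) had scores of 28 and 64 in WT and 44 and 12 in Dido1ΔE16, so the groups overlapped. The Hes1 region 80.1 kb downstream had 47 and 27 in WT, and that 89.7 kb downstream (chr16:30155053-30155392) had 50 and 105, and neither had a Dido1ΔE16 peak. The Notch1 intron 4 region (chr2:26483343-26483790) had 36 and 72, the Tcf7 region 35.5 kb upstream (chr11:52318546-52318754) had 25 and 50, and the Bcl11b intron 1 region (chr12:107998815-107999008) had 23 and 34 in WT, and all 3 were without a Dido1ΔE16 peak. The Bcl11b promoter had a peak in the second WT library alone, the deepest of the 4, with a score of 62, and the Hes1 promoter had 2 there, with scores of 44 and 48. Peaks seen in Dido1ΔE16 and not in WT were few and weak: Notch1 intron 1 in the first library with a score of 17, and Tcf7 34.4 kb upstream and Rbpj intron 1 in the second, with scores of 19 and 24.

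Tag levels were deposited for regions that the authors had selected as differing between the genotypes, so a difference at them was set by that selection. The first such list was tested against the mutant and the second against the WT background. In the first, 8534 of 8540 regions had both Dido1ΔE16 libraries below both WT libraries, and in the second 5212 of 5231. Among the 8 genes the lists held regions of Gata3 and Rbpj. On the log2 scale of tags scaled by the authors to equal totals, the Gata3 region 284 kb downstream had 8.67 and 8.47 in WT and 7.52 and 7.35 in Dido1ΔE16, a mean difference of -1.14. The Gata3 promoter interval (chr2:9876052-9880249) had 8.72 and 8.58 against 8.05 and 7.82, a difference of -0.72. The Rbpj promoter interval (chr5:53588381-53591318), which also covers the neighbouring intron 1 region, had 8.91 and 8.87 against 8.30 and 7.77, a difference of -0.85. These values are of the first list. In the narrower intervals of the second, the differences were -1.11 at the Gata3 region 284 kb downstream and -0.81 at both promoters. These 3 regions kept a MACS2 peak in all 4 libraries, with fewer tags in Dido1ΔE16. No test is given for them. Peaks and tags do not measure expression: by RT-qPCR the paper reports significantly higher Gata3 RNA in mutant than in WT LSK cells.

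In pre-B cells, the Notch receptors and their nuclear partner and targets were transcribed at moderate levels in both genotypes, and the T-lineage factors were at or near 0. The mean TPM of Dtx1, Notch2, Hes1, Notch1 and Rbpj lay at percentiles 70.4, 66.6, 62.8, 59.8 and 45.7 of the 11874 genes tested, and that of Tcf7 at 2.22. TPM is scaled for transcript length, but coverage along Notch1, Notch2 and Rbpj was uneven, as given below. The order of levels between genes is therefore approximate. The plot of the 8 genes by library gives each value. In bulk RNA, fewer cells of a type and less RNA per cell cannot be told apart.

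**Figure D3:**
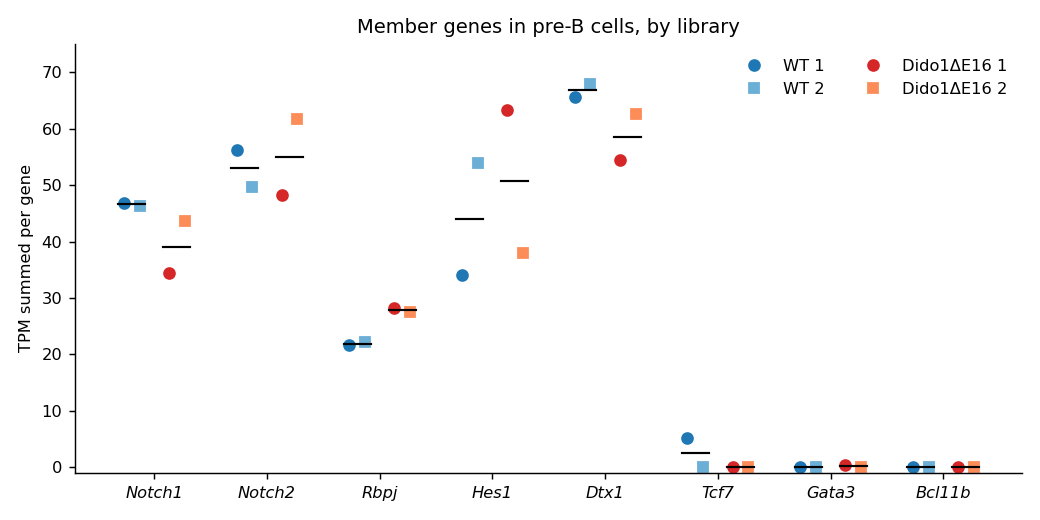
TPM summed per gene in pre-B cells for the 8 genes, 1 point per library, with circles and squares for the first and second library of each genotype and a bar at each mean. The genotypes overlap at Notch2 and Hes1, Rbpj is higher and Notch1 and Dtx1 lower in both Dido1ΔE16 libraries, and Gata3 and Bcl11b lie at or near 0.

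Notch1 had 46.9 and 46.4 TPM in WT and 34.4 and 43.6 in Dido1ΔE16, both Dido1ΔE16 libraries below both WT libraries. Its difference was -0.26 on the log2(TPM + 1) scale (SE 0.18, 95% interval -0.74 to 0.22, limma adjusted p = 0.663). Notch2 had 56.2 and 49.7 against 48.3 and 61.7, with overlapping groups and a difference of 0.04 (SE 0.19, interval -0.46 to 0.55, limma adjusted p = 0.95). Rbpj had 21.6 and 22.1 in WT and 28.2 and 27.6 in Dido1ΔE16, so its groups did not overlap. The Rbpj difference was 0.34 (SE 0.16, interval -0.09 to 0.77, limma adjusted p = 0.529).

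Of the targets, Hes1 had 34.1 and 53.9 TPM in WT and 63.4 and 37.9 in Dido1ΔE16, a spread within each genotype larger than the difference of 0.19 (SE 0.36, interval -0.79 to 1.17, limma adjusted p = 0.882). Dtx1 had 65.7 and 67.9 against 54.4 and 62.5, both Dido1ΔE16 libraries being lower, with a difference of -0.19 (SE 0.14, interval -0.58 to 0.20, limma adjusted p = 0.677). Dtx1 thus had the highest summed TPM of the 8 genes in WT pre-B cells. It had no MACS2 peak in LSK cells and 1 HOMER peak, in the second WT library, and the 2 cell types were not compared by a test. The intervals of all 5 genes contain 0, and that of Hes1 is the widest.

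Tcf7 was listed at 5.10 TPM in the first WT library, from 1 transcript, and at 0 in the other 3 libraries. Its fitted difference was -1.30 (SE 1.05, limma adjusted p = 0.688), and it rests on that library, since it is 0 without it. Gata3 was listed at 0.371 TPM in the first Dido1ΔE16 library and at 0 in the others, and Bcl11b at 0 in all 4. Neither reached the mean of 1 TPM needed for the test. A value of 0 in these files can be a failed estimate, because Mrpl42, a mitochondrial ribosomal protein gene used by every cell, was listed at 0 in both Dido1ΔE16 libraries, and Ndufa5, a respiratory chain gene, at 0 in both WT libraries.

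Of the 8 genes, 6 were tested and 0 passed an adjusted p under 0.05 with an absolute log2 difference of at least 0.6 in limma, and 0 had an unadjusted p under 0.05. Over all 11874 genes, 6 (0.0505%) passed, 3 higher (0.0253%) and 3 lower (0.0253%) in Dido1ΔE16, so the test called few genes of any kind. At an unadjusted p under 0.05, 8.64% of genes were higher and 3.01% lower. Among the 6, 1 gene had both Dido1ΔE16 libraries above both WT libraries, Rbpj, against 27.1% of all genes, and 2 had both below, Notch1 and Dtx1, against 15.5%. The median difference of all genes was 0.07.

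The balance of coverage along long, well-covered transcripts differed between the genotypes. Over 3573 to 3576 transcripts per library with at least 10 exons and 10 TPM, the median ratio of coverage in the 3′-terminal exon to that in the other exons was 1.15 and 1.21 in WT and 0.997 and 0.895 in Dido1ΔE16. At Notch1, the 3′-terminal exon, which holds 3075 bases, had a length-scaled coverage of 83.7 and 84.0 in WT and 50.04 and 56.5 in Dido1ΔE16, while the other 33 exons had 29.2 and 28.3 against 26.95 and 37.4. Without that exon the Notch1 difference was 0.01 (interval -0.59 to 0.61).

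At Notch2, the 3′-terminal exon of 4315 bases had 99.997 and 87.4 in WT and 73.8 and 85.7 in Dido1ΔE16, and the other exons 25.7 and 23.5 against 30.4 and 45.0. Both Dido1ΔE16 libraries were above both WT libraries in 19 of the 33 Notch2 exons before the last and below them in 0. At Notch1 the same counts were 11 and 5 of 33, at Dtx1 3 and 2 of 9, and at Hes1 0 and 0 of 3. The share of such exons over all genes was not counted. The exons of a transcript come from the same 4 libraries and are not replicates, so these counts are a description only. Without the last exon the Notch2 difference was 0.45 (interval -0.21 to 1.10) and did not pass the limma test. Whether the shift in coverage along transcripts moves the gene levels was not tested beyond this comparison.

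**Figure D4:**
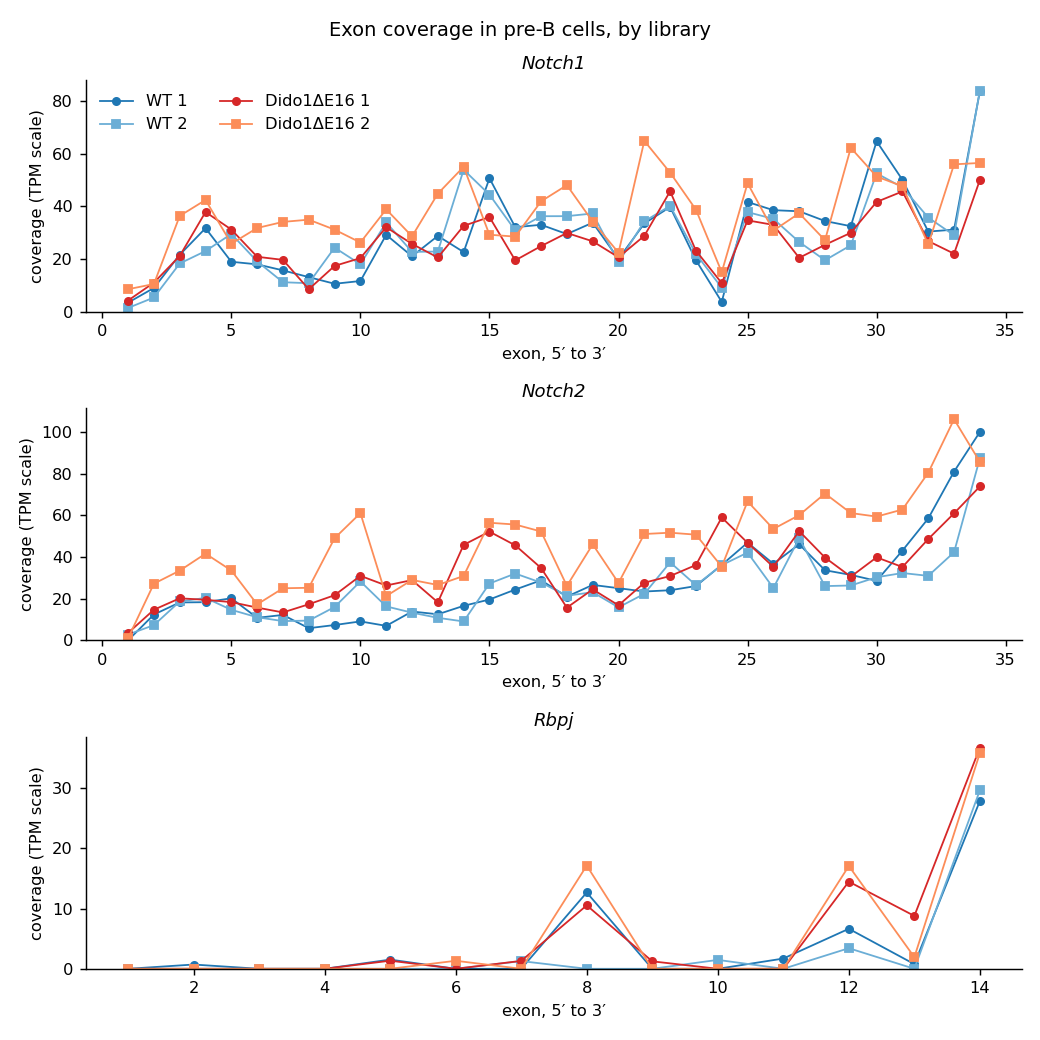
Length-scaled exon coverage on the TPM scale (y axis) along the exons of Notch1, Notch2 and Rbpj from 5′ to 3′ (x axis), 1 line per pre-B library. The last Notch1 exon is at 83.7 and 84.0 in WT and 50.04 and 56.5 in Dido1ΔE16, and most Rbpj exons before the last are near 0.

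StringTie gave the Rbpj level to the transcript uc008xlj.2 in the first WT library and to uc012dwg.2 in the other 3, so the 2 transcripts alone had differences of -2.25 and 2.59 (limma adjusted p = 0.717 for each), while the gene sum joins them. The Rbpj level rests almost wholly on its last exon of 4141 bases, with a coverage of 27.9 and 29.6 in WT and 36.7 and 35.8 in Dido1ΔE16 against 2.78 and 0.63 and 3.76 and 4.13 in its other exons. Of the 13 Rbpj exons of at least 50 bases, 1 had over 20 near-identical copies elsewhere in the genome and 8 others had 20 or fewer. Each of the 8 had a copy in 1 stretch of chromosome 6 (chr6:46529667-46530755), and 4 of them had more copies on chromosome 4. The coverage of the 5 with an identical copy was at most 1.7, and the 3 whose copy has mismatches, at 98.7% identity or more, had 0 to 17.1. Reads from such exons can be placed at the copy or discarded, so the Rbpj level is uncertain. No exon of Notch1, Notch2, Dtx1, Hes1 or Tcf7 had a copy of this kind. Exons of Notch1, Notch2 and Gata3 overlap those of other annotated genes (Notch1 with 0610009E02Rik and Gm13568, Notch2 with Gm42820, Gata3 with 9230102O04Rik and Gm13256), and reads shared by them cannot be told apart.

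The wider Notch pathway list held 53 further genes, of which 43 were tested, 8 were listed at 0 in all libraries and 0 passed the limma test. At an unadjusted p under 0.05 it had 6 genes higher in Dido1ΔE16 and 0 lower, against 8.64% and 3.01% of all genes, and its median difference was 0.14 against 0.07. The count of 6 was 13 without the first WT library and 2 without either Dido1ΔE16 library. Both Dido1ΔE16 libraries were above both WT libraries at 12 of the 43 genes and below them at 3, against 27.1% and 15.5% of all genes. The test needed a mean of 1 TPM over the 4 libraries. Hes5 and Jag2, with WT means of 0 and 0.97, reached it only through the Dido1ΔE16 libraries. Dll1, with 1.10 and 1.45 in WT and 0 and 0 in Dido1ΔE16, did not reach it and is in none of these counts. Of the 43, 5 had a mean under 5 TPM. Among the 6, Rfng, a glycosyltransferase that tunes the response of the receptors to ligands, had 32.5 and 35.5 TPM in WT and 81.9 and 61.1 in Dido1ΔE16, a difference of 1.04 (SE 0.20, limma adjusted p = 0.225). Jag2, a ligand, had 1.93 and 0 against 14.0 and 9.63 (2.88, SE 0.64, limma adjusted p = 0.279). Hes5, a target, was listed at 0 in both WT libraries and had 6.59 and 2.98 in Dido1ΔE16 (limma adjusted p = 0.276), and shares exonic sequence with Gm20421.

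The other 3 were Heyl, a target, with 6.71 and 2.59 TPM against 28.3 and 16.2, Maml3, a coactivator of the RBPJ complex, with 9.25 and 8.94 against 16.2 and 14.4, and Gimap5 with 12.3 and 17.9 against 34.2 and 30.4. All 12 genes of receptor processing and glycosylation and all 12 of the nuclear complex were tested. The highest levels of the list were those of Adam10, the protease that makes the first ligand-dependent cut, with 335 and 254 against 282 and 353, Ctbp1, a corepressor, with 310 and 251 against 301 and 490, and Hes6 with 255 and 389 against 326 and 241, all 3 with overlapping groups. Nrarp, a target that feeds back on Notch signalling, had 7.68 and 3.94 against 4.33 and 3.56.

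**Figure D5:**
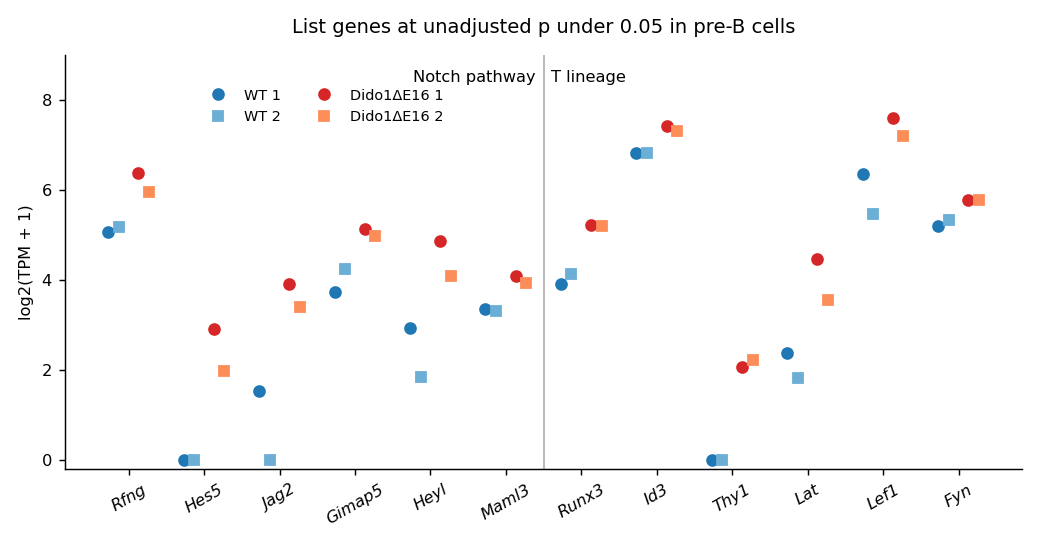
Level on the log2(TPM + 1) scale in the 4 pre-B libraries for the 6 genes of the Notch pathway list and the 6 of the T-lineage list at an unadjusted p under 0.05 in limma. In all 12 both Dido1ΔE16 libraries lie above both WT libraries, and 0 of the 12 passed the adjusted test.

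The T-lineage list held 36 further genes, of which 20 were tested, 10 were listed at 0 in all libraries and 0 passed the limma test. At an unadjusted p under 0.05, 6 genes were higher in Dido1ΔE16 and 0 lower, against 8.64% and 3.01% of all genes, and the median difference was 0.52 against 0.07. That count was 11 without the first WT library and 3 without the first Dido1ΔE16 library. The Dido1ΔE16 libraries were both above WT at 9 of the 20 genes and both below at 4, against 27.1% and 15.5%. Thy1, Cd3d and Cd247, with WT means of 0, 0.62 and 0.45 TPM, reached the mean of 1 TPM for the test only through the Dido1ΔE16 libraries. They are part of these counts and of the median, and 4 of the 20 had a mean under 5 TPM. Runx3, a factor of cytotoxic T cells, had 14.2 and 16.7 TPM in WT and 36.4 and 36.1 in Dido1ΔE16, a difference of 1.18 (SE 0.18, limma adjusted p = 0.191). Id3, an inhibitor of E proteins, had 111 and 112 against 169 and 158 (0.55, SE 0.12, limma adjusted p = 0.258). Thy1, a T-cell surface protein, was listed at 0 in both WT libraries and had 3.22 and 3.68 in Dido1ΔE16 (limma adjusted p = 0.267).

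The other 3 were Lef1, which encodes the relative of TCF1 that B-cell precursors also use, with 80.5 and 43.2 TPM against 194 and 147, Lat, an adaptor of the T-cell receptor, with 4.26 and 2.53 against 21.1 and 10.9, and the kinase gene Fyn with 35.7 and 39.1 against 54.0 and 54.3. The highest levels were those of genes that B cells use as well: Cd2 had 582 and 1052 against 665 and 684, Ikzf1 630 and 584 against 519 and 580, and Ets1 388 and 463 against 371 and 381.

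Markers of other cells were read in the same libraries. The summed TPM of 10 T- and NK-cell markers was 6.92 and 4.83 in WT and 12.01 and 13.4 in Dido1ΔE16. Of the 10, 2 had both Dido1ΔE16 libraries above both WT libraries, Thy1 of the T-lineage list and Klrb1c. The share over all genes tested was 27.1%, but 6 of the 10 were listed at 0 in all 4 libraries and could not show this order. They were Cd3e, Cd3g, Cd4, Cd8a, Cd8b1 and Ncr1. Low values were listed for Cd3d, with 0 and 1.25 in WT against 0.967 and 2.36, and for Trac, with 0 and 0.275 against 0.605 and 0. The sum of 6 mature B-cell markers was 846 and 856 against 1265 and 1493, with Ighd listed at 0 in all. Of the 6, 2 genes were in order above and 2 below, against 27.1% and 15.5% of all genes tested. Ltb, a lymphotoxin gene, accounted for most of that gap, with 154 and 155 against 604 and 670, while Fcer2a had 65.6 and 63.6 against 29.1 and 46.7. The sum of 5 plasma and switched B-cell markers was 249 and 280 against 290 and 272, and held Ighg2b, a switched heavy chain gene, with 4.83 and 0 against 66.7 and 47.1, and Sdc1 with 121 and 102 against 64.4 and 57.04. The 10 pre-B markers summed to 12561 and 13852 in WT and 14030 and 14016 in Dido1ΔE16. Of these 10, 2 were in order above and 3 below, against the same 27.1% and 15.5%. Within them, the surrogate light chain genes Vpreb1 and Igll1, which mark the earlier stages of the gate, had 108 and 40.9 TPM against 1222 and 738, and 112 and 34.4 against 424 and 252. The sum of 6 neutrophil and monocyte markers was 172 and 1516 against 734 and 6346, higher in the second library of each genotype. The part of these cells in the values of the 8 genes and of the lists was not tested.

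As a description of likeness, each tested gene was set beside the 63 tested genes of both lists by the root mean square of their log2 differences over the 4 libraries. The closest was Furin to Notch1 (0.18), Satb1 to Notch2 (0.11), Fbxw7 to Rbpj (0.18), Fyn to Hes1 (0.36), Dtx2 to Dtx1 (0.12) and Cd3d to Tcf7 (1.75). With 4 libraries this measure is set mostly by level. By mean TPM the order in WT was Dtx1, Notch2, Notch1, Hes1, Rbpj, Tcf7, with Gata3 and Bcl11b at 0, and of the neighbours among the first 5 the ranges of Notch1 and Hes1 overlapped. In Dido1ΔE16 it was Dtx1, Notch2, Hes1, Notch1, Rbpj, and the ranges of the first 4 overlapped from each neighbour to the next.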

How the data were processed

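ATAC-seq was done on LSK cells and RNA-seq on sorted pre-B cells, with 2 libraries per genotype each. Per the labels and the study's methods, the authors aligned reads to mm10 with Bowtie2 and BWA-MEM (BWA 0.7.15 in the submitters' processing notes) for ATAC-seq and with BWA-MEM, which is not splice-aware, for RNA-seq, removed duplicates with Picard, ran MACS2 and HOMER on each library separately, and annotated promoters as 1 kb before to 200 bp after a start. The deposited MACS2 peak lists give a score per peak, the HOMER peak lists were used by position alone, the HOMER comparison lists give log2 tag values scaled to equal library totals, and the StringTie tables deposited by the authors give TPM, FPKM and coverage per UCSC transcript and exon. Columns of the authors' own comparisons (fold changes, p-values) were not used.

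TPM was summed per gene, and exon coverage was multiplied by the ratio of total TPM to total coverage of its library. The authors' transcript-to-symbol pairs, which miss the main transcripts of Dtx1 and Tcf7, were completed from GENCODE M21 exons (at least 50% of exonic bases, same strand). Genes with a mean of at least 1 TPM were tested on log2(TPM + 1) with limma 3.58.1 (R 4.3.3, trend, Benjamini-Hochberg, calls at an adjusted p below 0.05 and a log2 difference of 0.6 or more in size), and the procedure was tested on simulated data. A shared WT region is an overlap of at least 1 base between the peaks of both WT libraries (bedtools 2.31.1). Exon copies were searched with blastn 2.17.0 at 90% identity over 80% of the exon, and exons with over 20 copies were counted apart. The limma p-values weigh each difference against the variation between these libraries, moderated over all genes, and not against variation between animals. The list genes named were the 3 per direction with the smallest p among those at an unadjusted p under 0.05 and the 3 highest in each list, plus the list gene closest to each member. Heyl, Maml3, Gimap5, Lef1, Lat, Fyn, Nrarp, Dll1 and Cd247 were named after their values were seen. The genes and lists were chosen with earlier results of these data known, so they support nothing by themselves. RNA depth is not given as reads: the aligned total was 1581, 1121, 1635 and 1174 megabases. A marker gene of the pre-B list is not reported here and was left out of its counts and sums.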

Additional observations from a re-analysis of the deposited data

How the results depend on the processing

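In the pre-B RNA, 6 genes of all those tested passed the limma test, 0 with a pseudocount of 0.1, 0 with no filter on low values, 87 without the eBayes trend, 25 over single transcripts and 0 with the replicate number as a block, and leaving out each library in turn gave 0 to 0, with 805 to 2599 genes at an unadjusted p under 0.05. Median centring and FPKM gave 6 each, the authors' symbols 9 and leaving out the 3′-terminal exon 4 (the last 2 chosen after seeing the data). By their labels, same-numbered libraries shared only a number. The correlation of their deviations was 0.0462 across 11874 genes, which are not independent replicates. This value is over all genes and does not describe a subset of them. In both genotypes, the first library had the larger aligned total and the second the larger sum of neutrophil and monocyte markers. A batch common to same-numbered libraries was not tested. No member gene, and none of its transcripts, passed in any of 13 alternatives. Over the 12 of these that use gene sums, the direction was the same for Rbpj (0.25 to 2.59, the highest with the authors' symbols, where the first WT library is listed at 0) and Dtx1 (-0.29 to -0.09), and not for Notch1 (-0.43 to 0.01), Notch2 (-0.13 to 0.45) or Hes1 (-0.17 to 0.55). Tcf7 ranged from -2.85 to 0. Of the 12 list genes named by rule, 8 kept their direction in each alternative over gene sums that gave them a value, which FPKM did not for Hes5 and Thy1. On leaving out each library, list genes at an unadjusted p under 0.05 numbered 2 to 13 (Notch pathway) and 3 to 11 (T lineage). In the T-lineage list, 1 gene, Thy1, passed without the trend (log2 fold change 2.15, limma adjusted p = 0.0482). In the ATAC data, member genes with fewer Dido1ΔE16 peaks numbered 5, 2 with HOMER peaks, 0 with equal numbers of best-scoring peaks and 5 to 7 on leaving out each library. Regions without a Dido1ΔE16 peak numbered 14, 6 with HOMER peaks, 1 with equal numbers and 15 to 37 on leaving out each library, the highest of 45 regions without the first WT library. The peak numbers were compared without pairs. The cause of these changes was not tested.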
